A study of Mus musculus with 10 samples.

Results

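The 41 genes described here copy DNA and prepare the cell for S phase, and they were followed in sorted microglia, the resident macrophages of the brain, at 2 ages. They were taken by symbol from a list of DNA replication and S phase genes, a rule that sets no threshold on measured values, and all 41 were found among the 49315 genes counted. The 10 RNA-seq libraries came from wild-type C57BL/6 mice. Brain microglia had been sorted into cells with surface CD11c, the integrin chain encoded by Itgax, and cells without it. Mice at postnatal day 5 (P5) gave 3 libraries of each subset, and animals 9 months old gave 2 of each. The libraries of the 9-month mice were amplified with a low-input SMART-Seq v4 kit and the P5 libraries were not described that way, so age and library preparation cannot be told apart. No group carried a transgene, a deletion or a treatment according to the labels. The labels do not say whether replicates were separate animals or pools, so each p-value measures the spread between these libraries, which may be technical.

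Before a cell copies its genome, the Mcm helicase is loaded at origins with the help of Cdc6, kept from being loaded again by geminin (Gmnn), and started by Cdc45 and the GINS complex. Primase and DNA polymerases then copy the strands on the sliding clamp Pcna, while ribonucleotide reductase and thymidylate synthase supply nucleotides and histone chaperones rebuild chromatin behind the fork. Most of these genes are under the control of E2F transcription factors and are transcribed mainly from late G1 into S phase. Microglia multiply in the young postnatal brain and divide slowly in the adult.

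Total counts per library lay between 11892082 and 25483573, except in the library labelled P5 CD11c+ replicate 2, which had 2619610. That library also stood apart in composition. In it 23033 genes reached 1 CPM (counts scaled to the library total), where the other 9 had 12762 to 14735 such genes, and its correlation with the other P5 libraries across genes was 0.80 to 0.844. Itgax, the gene of the sort marker, was at 250.2, 49.2 and 145 CPM in the P5 CD11c+ libraries and at 33.1, 61.9 and 29.4 CPM in the P5 CD11c- libraries, so replicate 2 overlapped the CD11c- range. At 9 months Itgax was at 28.0 and 20.7 CPM in CD11c+ and at 5.80 and 3.21 CPM in CD11c- cells. Genes of homeostatic microglia, a list of 20, took 1.54% to 3.26% of the counts in the P5 libraries, 8.03% and 8.65% in the 9-month CD11c+ libraries and 2.79% and 2.80% in the 9-month CD11c- libraries. None of the 20 was at 0 in any group. The counts of members at P5 and in the comparison of ages are also given without that P5 CD11c+ library.

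Because many replication genes share promoter letters bound by E2F factors and by NF-Y, 5 promoters are shown, each as the 250 bases before the start site in RefSeq (GRCm38.p6). Capitals mark the E2F-type letters TTTCCCGC, TTTGGCGC, TTTGCCGC or TTTCGCGC and the NF-Y letters CCAAT, searched on both strands. Neighbouring matches run together where they overlap. Dtl, Mcm5 and Mcm6 had lower transcript levels in CD11c+ cells at 9 months by the TMM-scaled edgeR test below, Pola1 did not pass that test, and Rrm2 had the largest difference of the 41 genes. The windows lie at chr1:191575545-191575794 on the minus strand (Dtl), chr8:75109259-75109508 on the plus strand (Mcm5), chr1:128359706-128359955 on the minus strand (Mcm6), chrX:93632156-93632405 on the minus strand (Pola1) and chr12:24708004-24708253 on the plus strand (Rrm2). They read 5′ to 3′ along the gene's strand.
Dtl: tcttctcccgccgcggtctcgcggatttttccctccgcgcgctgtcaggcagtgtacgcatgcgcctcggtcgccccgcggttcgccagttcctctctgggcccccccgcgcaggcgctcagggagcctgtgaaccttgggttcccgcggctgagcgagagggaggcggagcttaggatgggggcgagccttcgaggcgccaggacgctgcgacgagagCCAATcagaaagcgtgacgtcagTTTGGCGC
Mcm5: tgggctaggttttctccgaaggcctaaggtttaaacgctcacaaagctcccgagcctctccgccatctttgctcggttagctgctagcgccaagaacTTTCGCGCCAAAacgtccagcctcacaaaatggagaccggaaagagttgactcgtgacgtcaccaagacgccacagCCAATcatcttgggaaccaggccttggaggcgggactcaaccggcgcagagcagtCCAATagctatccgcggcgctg
Mcm6: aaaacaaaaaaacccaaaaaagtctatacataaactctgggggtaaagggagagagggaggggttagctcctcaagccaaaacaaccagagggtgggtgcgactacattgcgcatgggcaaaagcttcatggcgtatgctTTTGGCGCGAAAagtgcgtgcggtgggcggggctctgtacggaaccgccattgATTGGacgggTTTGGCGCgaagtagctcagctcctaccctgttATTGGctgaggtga
Pola1: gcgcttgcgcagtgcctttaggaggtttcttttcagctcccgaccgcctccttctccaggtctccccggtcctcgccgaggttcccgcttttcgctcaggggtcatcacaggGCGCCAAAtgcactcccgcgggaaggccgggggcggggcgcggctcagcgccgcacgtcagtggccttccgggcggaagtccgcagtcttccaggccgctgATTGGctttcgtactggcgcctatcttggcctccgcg
Rrm2: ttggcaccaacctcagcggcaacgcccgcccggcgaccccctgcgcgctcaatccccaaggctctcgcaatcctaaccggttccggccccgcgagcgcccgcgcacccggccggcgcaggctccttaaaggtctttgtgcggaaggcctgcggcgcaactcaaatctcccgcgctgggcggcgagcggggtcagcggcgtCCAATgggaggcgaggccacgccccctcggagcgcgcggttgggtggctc
Dtl, Mcm5, Mcm6 and Pola1 each hold E2F-type letters in these stretches and Rrm2 holds none, while all 5 hold CCAAT on one strand or the other. A match is a description of the letters and not evidence of binding.

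RefSeq windows, which run from 250 bases before to 50 bases after a start site, were found for 33 of the 41 genes. No window was found for Gmnn, Mcm4, Gins2, Rfc2, Tipin, Exo1, Usp1 and Ccne2. In the window nearest to the deposited gene start, 12 of the 33 genes (36.4%) held E2F-type letters, against 2.26% of all 32851 windows. CCAAT stood in 23 of the 33 (69.7%), against 37.4% of all windows. At 9 months the E2F-type letters were present in 8 of the 23 genes with a window that were lower in CD11c+ cells (34.8%) and in 4 of the 10 that were not (40%). The difference between these shares was not tested, and the 8 genes without a window were all among the lower ones.

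In TPM, counts divided by gene length and scaled to the same total in each library, so that genes can be compared with each other, Pcna was the most abundant of the 41 in every group, at mean levels of 174.7 TPM in P5 CD11c+, 168.5 in P5 CD11c-, 165.3 in 9-month CD11c+ and 106.8 in 9-month CD11c- cells. Mcm3, a helicase subunit, ranked second in the first 3 of those groups, at 55.9, 56.6 and 70.8 TPM. In 9-month CD11c- cells the gene ranked second was Rrm2, the small subunit of ribonucleotide reductase, at 86.6 TPM, while it ranked 19 of 41 in 9-month CD11c+ cells, at 8.06 TPM. The lowest levels in 9-month CD11c+ cells were those of Exo1, an exonuclease of mismatch repair, at 0.322 TPM, Clspn (claspin, an adaptor of the replication checkpoint) at 0.513 TPM and Dtl at 0.758 TPM. Each gene had at least 845 counts over the 10 libraries, and all 41 passed the filter on low counts in each comparison.

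At P5, no member differed between CD11c+ and CD11c- cells by the quasi-likelihood F-test of edgeR at an adjusted p under 0.05. Among the 15410 genes tested, 46 (0.299%) were higher in CD11c+ cells and 0 (0%) were lower. At an unadjusted p under 0.05 there was 1 member, Rfc2, where 1077 of the 15410 genes tested had such a p. By DESeq2 or limma-voom 0 members passed, with 3 and 2 members at an unadjusted p under 0.05. The counts of all genes that passed by these tools are given further below, and those at an unadjusted p are not given. The members' log2 fold changes, CD11c+ over CD11c-, were negative in 29 of 41, where 6986 of the 15410 genes tested were negative. Their median was -0.20, against 0.06 over all genes tested, and they ran from -1.0 to 0.86 (Exo1). The count of negative members moved with the scaling. With plain library totals instead of TMM it was 21 of 41 (4658 of all genes), with a median of -0.01 against 0.26 over all genes. Scaled to the homeostatic list it was 10 of 41 (2383 of all genes). In CPM the libraries of both subsets failed to overlap for 3 members. Pola1 and Rrm1 were higher in CD11c+ cells (11.7% of all genes tested did the same) and Gmnn was lower (3.64%). The sum over all 41 genes took 0.143%, 0.123% and 0.135% of the counts in CD11c+ replicates 1 to 3 and 0.179%, 0.134% and 0.114% in CD11c- replicates 1 to 3, so the CD11c- libraries spanned the CD11c+ range.

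Single genes showed the same overlap at P5. Rrm2 was at 33.3, 12.98 and 23.5 CPM in CD11c+ and 46.8, 40.5 and 21.9 CPM in CD11c- cells, with a log2 fold change of -0.79 ± 0.38 (SE, adjusted p = 0.771), or -0.50 ± 0.27 (SE, adjusted p = 0.274) without CD11c+ replicate 2. Cdc6 was at 7.71, 16.0 and 8.55 CPM in CD11c+ and 10.3, 8.55 and 6.56 CPM in CD11c- cells. Its log2 fold change was 0.17 ± 0.43 (SE, adjusted p = 0.939), and it turned to -0.21 ± 0.22 (SE, adjusted p = 0.575) without CD11c+ replicate 2. Usp1, which removes ubiquitin from Pcna, was close in all 6 libraries, at 45.8, 44.7 and 42.3 CPM in CD11c+ and 52.2, 41.3 and 37.6 CPM in CD11c- cells. The 3 CD11c+ values fell inside the CD11c- range.

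Of the P5 CD11c+ libraries, replicate 2, which stood apart across all genes, also differed most from the others in the levels of these genes. Between CD11c+ replicates 1 and 3 the log2 ratio of a member's CPM ran from -0.37 to 0.70, whereas replicate 2 over their mean ran from -3.81 (Fen1, the flap endonuclease, with 1 count) to 2.52 (Exo1, 32.5 CPM against 6.32 and 4.97). In replicate 2, 12 members lay above the range of the other 5 P5 libraries, 18 below it and 11 within it. The share of all genes outside that range is not given, so these counts do not set the members apart from other genes. Helicase genes were among the low ones, with Mcm3 at 25.2 CPM against 104.4 and 94.2, while Ccne2, the cyclin E2 gene, was high at 38.6 CPM against 9.68 and 8.87. Across the 41 genes the ratio of replicate 2 to the others had a Spearman correlation of 0.26 with gene length, over points that share the same libraries.

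**Figure D1:**
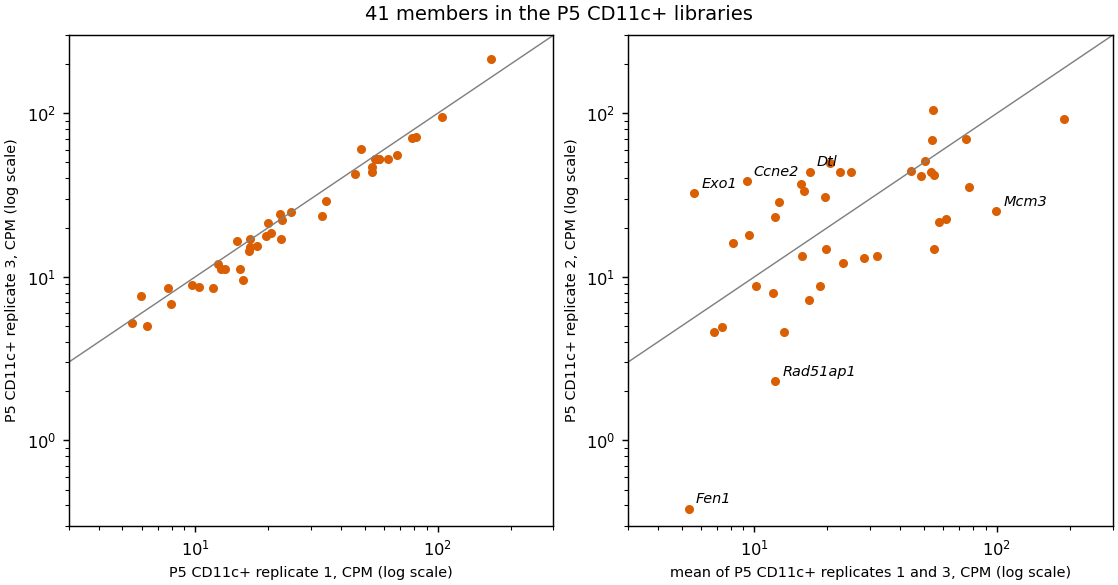
CPM of the 41 genes in P5 CD11c+ libraries on log axes, each point 1 gene and the line equality. On the left, replicate 3 is plotted against replicate 1 and log2 ratios stay between -0.37 and 0.70 (replicate 1 against replicate 3). On the right, replicate 2 is plotted against the mean of replicates 1 and 3 and runs from 3.81 log2 units below the line (Fen1) to 2.52 above it (Exo1).

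Without P5 CD11c+ replicate 2, the replicate coefficient of variation over all genes went from 0.614 to 0.243, and 801 of 15841 genes (5.06%) were higher and 700 (4.42%) lower in CD11c+ cells. Of the members, 0 were higher and 1 was lower, namely Cdca7, a partner of the chromatin remodeller Hells, with a log2 fold change of -1.20 ± 0.26 (SE, adjusted p = 0.0339). It was at 15.7 and 9.62 CPM in CD11c+ replicates 1 and 3 and at 34.3, 20.1 and 24.0 CPM in CD11c- cells, with no overlap. Gmnn, Hells, Nasp and Tyms were also lower without overlap, which makes 5 members (15.9% of all genes tested). Pola1 and Rrm1 were higher without overlap (28.8%). A further 8 members had an unadjusted p under 0.05 and none of these passed adjustment. With Cdca7 these were 9 of 41 members, where 4383 of the 15841 genes tested had such a p. The median log2 fold change was -0.21. With all 6 libraries scaled to the homeostatic list the median over the members was 0.34, against 0.55 over all genes, and 0 members passed in either direction (0.72% of all genes were higher). That list was itself not level between the subsets at P5. With TMM scaling of all 6 libraries, 19 of its 20 genes had a negative log2 fold change, with a median of -0.86 and 0 called lower. Without CD11c+ replicate 2 the median was -0.61 and 5 were called lower. In the fit of all 10 libraries 0 members passed at P5 (0.532% of all genes were higher and 0.174% lower). The mitochondrially encoded genes took 2.38%, 0.771% and 2.79% of the counts in the P5 CD11c+ libraries and 7.15%, 20.7% and 28.0% in the P5 CD11c- libraries, and 16 genes of border-associated macrophages took 1.82%, 1.41% and 1.55% against 0.169%, 0.146% and 0.0844%. The part of either in these values was not tested.

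At 9 months, 31 of the 41 genes were lower in CD11c+ than in CD11c- cells, 1 was higher and 9 did not pass the edgeR test. Over all 15740 genes tested, 18.2% were lower and 14.8% were higher. The members' median log2 fold change was -1.60, against 0.02 over all genes. The CPM values of both groups did not overlap for 33 members that were lower in CD11c+ cells (23.7% of all genes) and 4 that were higher (49.4%). With DESeq2 or limma-voom in place of edgeR the calls of all 41 members stayed the same. The shares over all genes are not given for these tools, so this speaks only to the choice of tool. In a fit of all 10 libraries, which shares 1 estimate of the spread with the P5 libraries, 15 members were lower (4.49% of all genes) and 0 higher (1.43%). The 15 were Brip1, Ccne2, Cdc45, Cdc6, Chaf1b, Clspn, Dtl, E2f8, Gmnn, Hells, Rrm2, Tyms, Uhrf1, Usp1 and Wdr76. A lower level in 1 sorted population than in another can come from fewer cells that transcribe the gene or from less RNA in each. It can also come from other cell types in either population, and bulk libraries cannot tell these apart. Genes of late neutrophils, a list of 14, took 14.7% and 19.9% of the counts in 9-month CD11c- libraries. In 9-month CD11c+ libraries they took 0.248% and 0.156%, and their part in these differences was not tested.

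**Figure D2:**
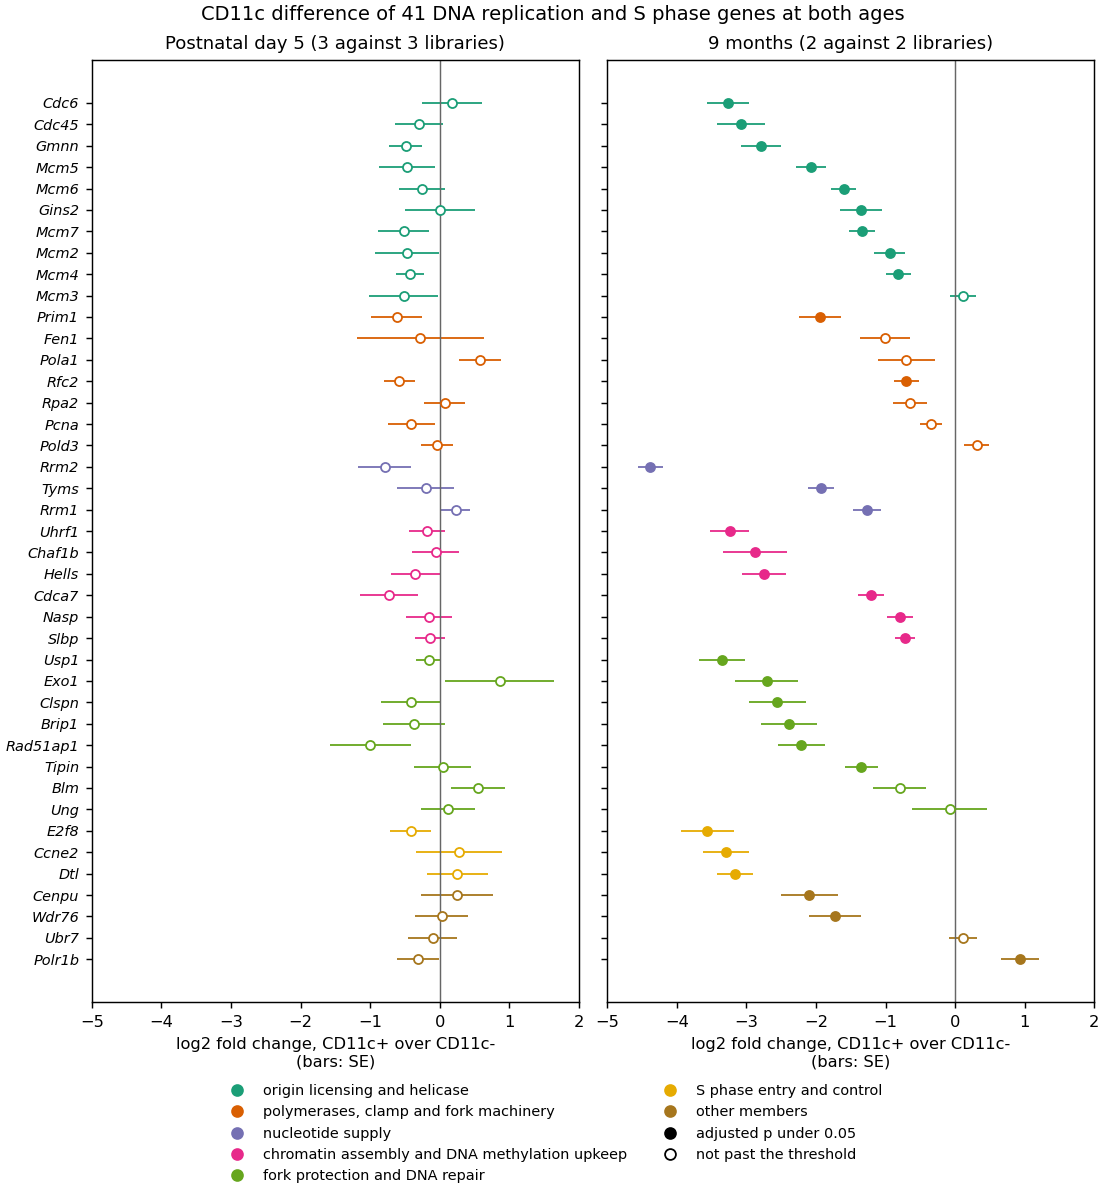
Log2 fold change of CD11c+ over CD11c- cells for each of the 41 genes at P5 (left, 3 against 3 libraries) and 9 months (right, 2 against 2), coloured by role, with SE bars and filled points past an adjusted p of 0.05. At P5 no point is filled and values lie between -1.0 and 0.86, and at 9 months 31 filled points lie below 0 and 1 (Polr1b) above it.

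Among the 10 genes of origin licensing and the helicase, 9 were lower in 9-month CD11c+ cells. Cdc6 was at 2.16 and 2.78 CPM in CD11c+ and at 21.4 and 15.5 CPM in CD11c- cells. No CD11c+ value reached the CD11c- range, and the log2 fold change was -3.27 ± 0.30 (SE, adjusted p = 0.000384), or 9.63-fold lower. Cdc45, which joins the Mcm ring in the moving helicase, was at 5.97 and 3.21 CPM against 30.1 and 29.7 CPM, with a log2 fold change of -3.08 ± 0.34 (SE, adjusted p = 0.000883). Helicase subunits differed by less and not all in the same way. Mcm6 was at 38.9 and 37.4 CPM in CD11c+ and at 105 and 74.9 CPM in CD11c- cells, 3.03-fold lower (log2 -1.60 ± 0.18 SE, adjusted p = 0.00103). Mcm3 was the exception in the group, at 111 and 88.2 CPM in CD11c+ and 82.0 and 61.9 CPM in CD11c- cells, with a log2 fold change of 0.11 ± 0.19 (SE, adjusted p = 0.706). Mcm5, Mcm7, Mcm2 and Mcm4 had log2 fold changes of -2.07, -1.34, -0.94 and -0.82, so the 6 subunits of 1 ring spanned -2.07 to 0.11. Mcm4 missed the threshold without CD11c+ replicate 1 (adjusted p = 0.0569), and Mcm2 and the GINS subunit Gins2 missed it without CD11c+ replicate 2 (adjusted p = 0.106 and 0.0837). Gmnn, the licensing inhibitor, had a log2 fold change of -2.79 ± 0.29 (SE, adjusted p = 0.000624).

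In the polymerase, clamp and fork group 2 of 7 genes were lower, and the median log2 fold change was -0.70. Prim1, the catalytic subunit of primase, was at 7.06 and 5.94 CPM in CD11c+ and at 16.6 and 21.7 CPM in CD11c- cells, 3.85-fold lower (adjusted p = 0.00333). Rfc2, a subunit of the complex that loads the clamp, was at 83.5 and 70.3 CPM against 109.8 and 84.1 CPM, with a log2 fold change of -0.70 ± 0.18 (SE, adjusted p = 0.0231). Its CPM ranges nearly met, and it missed the threshold without CD11c+ replicate 2 (adjusted p = 0.145) or without CD11c- replicate 1 (adjusted p = 0.0711). Pcna was nearly level between the subsets, at 148.5 and 149.7 CPM in CD11c+ and 138.7 and 152.9 CPM in CD11c- cells, and its log2 fold change was -0.35 ± 0.16 (SE, adjusted p = 0.15). It did pass when scaled to the homeostatic list (log2 -1.54, adjusted p = 0.000325). Under that scaling the median over all genes was -1.17 and 54.2% of them were lower. Pold3, an accessory subunit of polymerase delta, was at 60 and 53.8 CPM in CD11c+ and at 38.7 and 32.1 CPM in CD11c- cells, a log2 fold change of 0.31 ± 0.18 (SE, adjusted p = 0.222). With plain library totals Pold3 was called higher (log2 0.68, adjusted p = 0.0353), as were 25.4% of all genes. Scaled to the homeostatic list all 7 genes of the group were lower, as were 54.2% of all genes. Fen1 was at 4.43 and 3.55 CPM against 7.62 and 4.93 CPM and did not pass (log2 -1.01 ± 0.36 SE, adjusted p = 0.0745), although it did without CD11c- replicate 2 (adjusted p = 0.0388). CPM values are scaled to the library total, whereas the fold changes also carry the TMM scaling, so the ratio of CPM means differs from the fitted fold.

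All 3 nucleotide supply genes were lower in 9-month CD11c+ cells. Rrm2 was at 8.75 and 8.03 CPM in CD11c+ and at 147.8 and 122.6 CPM in CD11c- cells. This was the largest difference of the 41 genes, 20.8-fold lower (log2 -4.38 ± 0.18 SE, adjusted p = 2.73e-05). The large subunit of the same enzyme, Rrm1, was at 49.4 and 40.98 CPM against 98.5 and 71.0 CPM, 2.41-fold lower (adjusted p = 0.00348). Tyms, the thymidylate synthase, was at 15.8 and 15.0 CPM against 44.9 and 44.9 CPM, 3.80-fold lower (adjusted p = 0.000573).

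Of the 6 genes of chromatin assembly and DNA methylation upkeep, 6 were lower. Uhrf1, which brings the maintenance DNA methyltransferase to freshly copied DNA, was at 4.63 and 3.68 CPM in CD11c+ and at 37.1 and 24.2 CPM in CD11c- cells, 9.46-fold lower (log2 -3.24 ± 0.28 SE, adjusted p = 0.000301). Chaf1b, a subunit of the chromatin assembly factor CAF-1, was at 1.22 and 3.03 CPM against 13.3 and 10.7 CPM, 7.35-fold lower (adjusted p = 0.00408). Slbp, which binds the stem-loop of histone mRNAs, differed least of the 6, at 128.3 and 127.4 CPM against 168.2 and 155.4 CPM (log2 -0.72 ± 0.14 SE, adjusted p = 0.00955). The other 3 genes, Hells, Cdca7 and Nasp, had log2 fold changes of -2.75, -1.21 and -0.79, and Nasp missed the threshold without CD11c+ replicate 1 (adjusted p = 0.0679) or CD11c+ replicate 2 (adjusted p = 0.12).

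In fork protection and DNA repair, 6 of 8 genes were lower. Usp1 was at 3.81 and 3.80 CPM in CD11c+ and at 23.3 and 35.7 CPM in CD11c- cells, 10.2-fold lower (log2 -3.35 ± 0.33 SE, adjusted p = 0.000542). Exo1 was at 1.14 and 0.897 CPM against 6.05 and 4.34 CPM, 6.53-fold lower (adjusted p = 0.00468). Tipin, which travels with the fork as part of a protective complex, was at 19.8 and 23.8 CPM against 37.2 and 47.3 CPM, 2.54-fold lower (adjusted p = 0.0062). The other 3 that were lower, Clspn and Brip1 among them, had log2 fold changes between -2.56 and -2.21. The helicase gene Blm (-0.80, adjusted p = 0.157) and Ung, the uracil glycosylase (-0.08, adjusted p = 0.925), did not pass.

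The 3 genes of S phase entry and control were all lower, by similar amounts. E2f8, an atypical E2F that represses E2F targets, was at 1.14 and 2.01 CPM in CD11c+ and at 14 and 14.4 CPM in CD11c- cells, 11.8-fold lower (log2 -3.56 ± 0.38 SE, adjusted p = 0.00073). Ccne2 was at 1.92 and 2.61 CPM against 15.2 and 18.8 CPM, 9.80-fold lower (adjusted p = 0.000603). Dtl, the adaptor that sends licensing factor Cdt1 for destruction, was at 3.92 and 3.89 CPM against 32.5 and 21.7 CPM, 8.91-fold lower (adjusted p = 0.000264).

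The 4 remaining genes are not replication factors in the strict sense and went in both directions. Polr1b, a subunit of RNA polymerase I, was at 25.9 and 19.4 CPM in CD11c+ and at 11.0 and 7.46 CPM in CD11c- cells. It was the 1 member called higher, with a log2 fold change of 0.93 ± 0.27 (SE, adjusted p = 0.0395), but it missed the threshold without CD11c+ replicate 1 (adjusted p = 0.233) or without CD11c- replicate 2 (adjusted p = 0.0682) and changed sign when scaled to the homeostatic list. Cenpu, a centromere protein, was at 2.47 and 1.58 CPM against 6.63 and 6.78 CPM, 4.28-fold lower (adjusted p = 0.00866). Wdr76 was at 3.02 and 2.35 CPM against 8.29 and 5.65 CPM, 3.33-fold lower (adjusted p = 0.0129), and missed the threshold without CD11c+ replicate 2 (adjusted p = 0.0514). Ubr7 was at 27.2 and 27.7 CPM against 21.8 and 17.6 CPM, with a log2 fold change of 0.11 ± 0.20 (SE, adjusted p = 0.713).

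**Figure D3:**
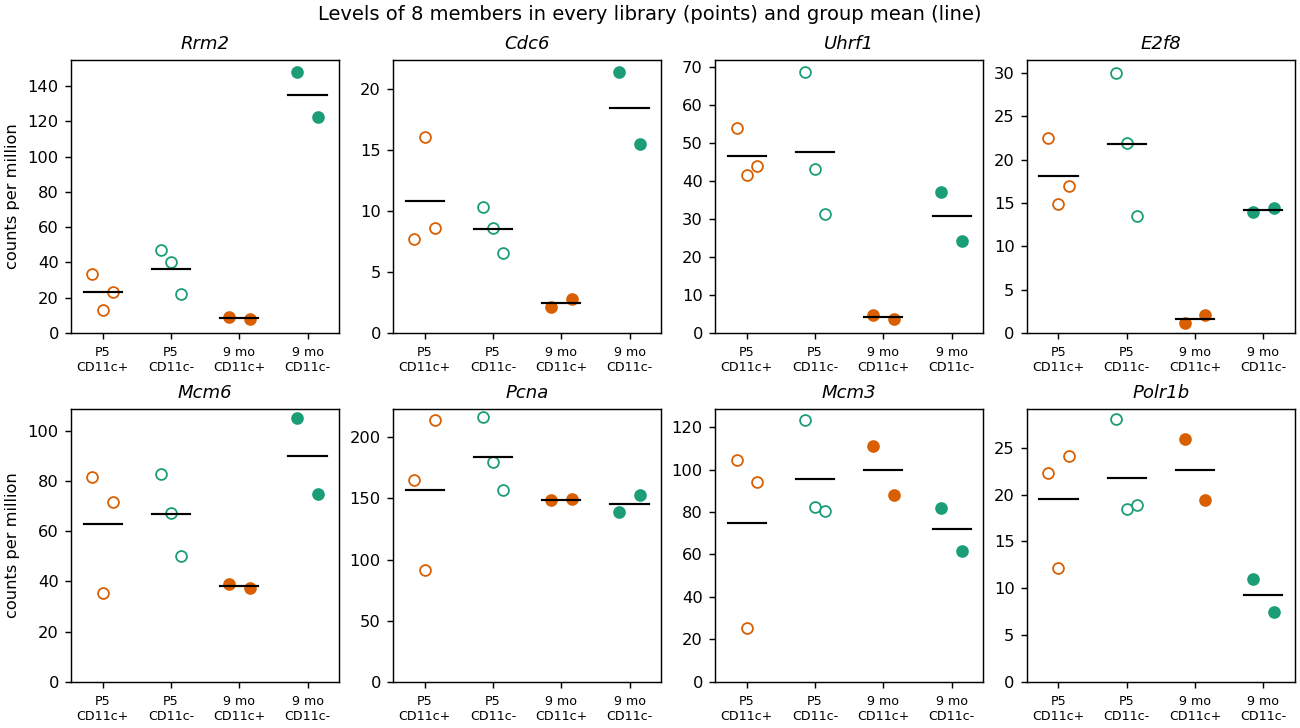
CPM (vertical axes, each from 0) of 8 genes in every library, with points for libraries, black lines for group means, orange for CD11c+ and green for CD11c- cells, and open points for P5. Rrm2, Cdc6, Uhrf1, E2f8 and Mcm6 are lower in both 9-month CD11c+ libraries than in either 9-month CD11c- library, Pcna lies between 138.7 and 152.9 CPM in all 4 9-month libraries, and Mcm3 and Polr1b have higher CPM in CD11c+ libraries at 9 months, a direction that turns for both when libraries are scaled to the homeostatic list.

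Other cell type markers differed between the 9-month subsets in the same libraries. The 10 granule genes of neutrophil precursors took 0.00425% and 0.00217% of the counts in CD11c+ and 0.372% and 0.296% in CD11c- libraries, and all 10 were lower in CD11c+ cells. The 14 genes of late neutrophils took 0.248% and 0.156% against 14.7% and 19.9%, and the 10 monocyte genes 0.0421% and 0.0312% against 1.34% and 1.57%. Chil3 stands in both of these lists, and without it the other 9 monocyte genes summed to 245.0 and 189.7 CPM in CD11c+ and 4826 and 5082 CPM in CD11c- libraries. All 14 and all 10 were lower in CD11c+ cells, and no gene of the 3 lists was at 0 in either 9-month group. Eosinophil and basophil granule genes, a list of 7, took 0.159% and 0.152% of the CD11c- counts and 0.000561% and 7.69e-05% of the CD11c+ counts. The 16 genes of border-associated macrophages went the other way. They took 0.222% and 0.209% of the counts in CD11c+ and 0.0650% and 0.0550% in CD11c- libraries, and 15 were higher and 1 lower in CD11c+ cells with TMM scaling. Of the 20 homeostatic microglia genes, 19 were higher and 1 lower in CD11c+ cells with TMM scaling. The part of these other cell types in the replication gene differences was not tested. Scaling the libraries to the homeostatic list instead of by TMM moved the median of all genes from 0.02 to -1.17 and that of the members to -2.81, and 39 of 41 members were then lower (54.2% of all genes) and 0 higher (0.756%). With plain library totals the medians were 0.40 and -1.24, and 26 members were lower (13.1% of all genes) and 2, Polr1b and Pold3, were higher (25.4%). Nasp, Slbp, Rfc2, Mcm2 and Mcm4 missed the threshold with library totals, with adjusted p of 0.172, 0.149, 0.249, 0.106 and 0.11. With the homeostatic scaling Mcm3, Pold3, Ubr7 and Polr1b changed sign, with log2 fold changes of -1.11, -0.89, -1.10 and -0.29.

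**Figure D4:**
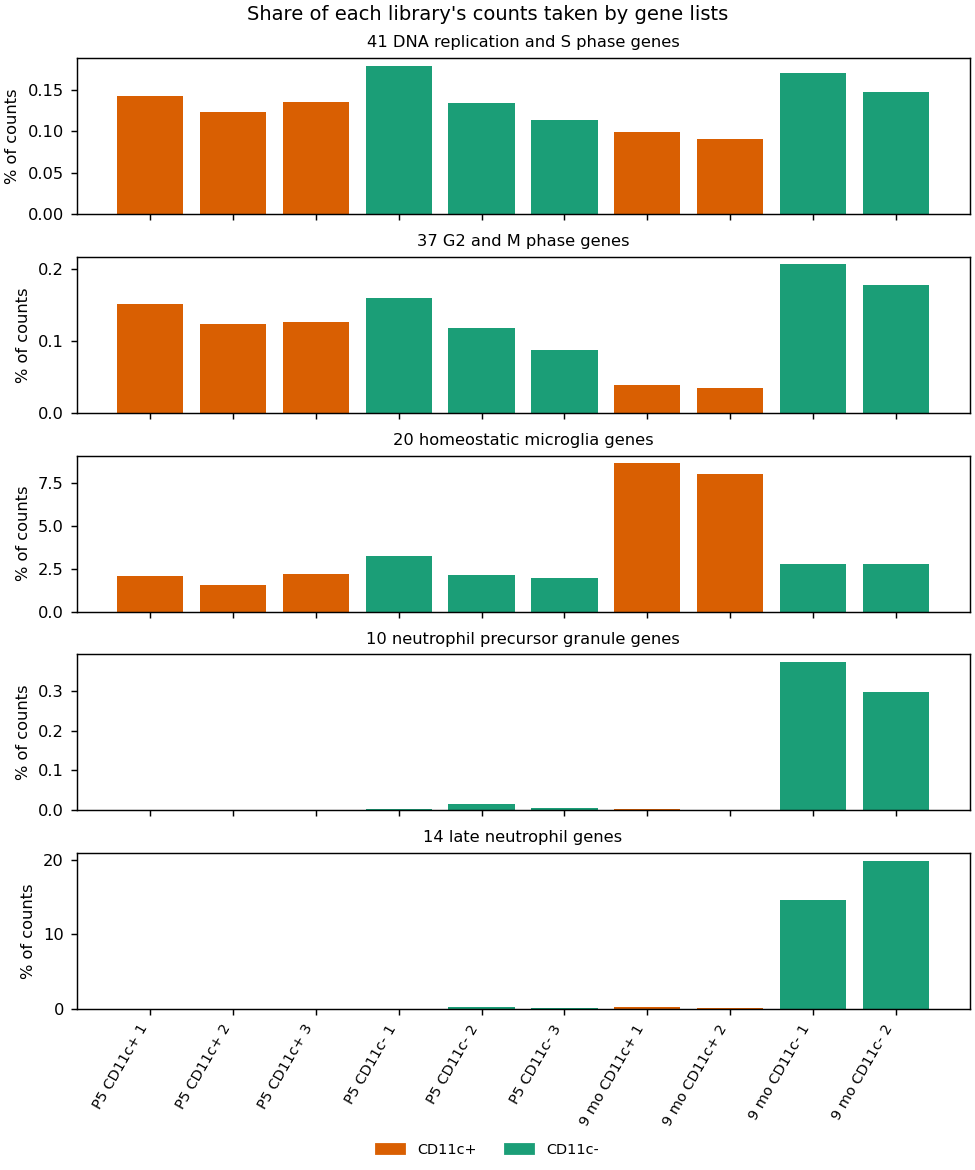
Percent of each library's counts (vertical axes, each from 0) taken by 5 gene lists in the 10 libraries, orange for CD11c+ and green for CD11c- cells. At 9 months the 41 replication genes, the 37 G2 and M phase genes and both neutrophil lists take a larger share in CD11c- libraries and the 20 homeostatic genes a larger share in CD11c+ libraries, whereas P5 libraries overlap for the 41 genes and the 37 genes.

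Many other cell cycle genes were also lower in CD11c+ cells at 9 months. With TMM scaling 18.2% of all genes tested were lower and 14.8% higher, and with library totals 13.1% and 25.4%. Of 44 other replication genes, 20 were lower and 1 higher in CD11c+ cells (17 and 2 with library totals), with a median log2 fold change of -1.15. The list of 15 E2F factors, G1 cyclins and kinases had 9 lower and 1 higher (8 and 3 with library totals), with a median of -1.47. Ccna2, the S and M phase cyclin A2, was among the lower ones (log2 -4.41 ± 0.33 SE, adjusted p = 0.000152), as was the activator E2f2 (log2 -3.41 ± 0.23 SE, adjusted p = 0.000113). Ccnd1 (cyclin D1) was the 1 that was higher with TMM scaling, at 1.84. All 37 genes of G2 and M phase were lower, with a median of -3.10, including Birc5, the survivin of the chromosomal passenger complex (log2 -4.29 ± 0.21 SE, adjusted p = 3.93e-05), and Top2a, the topoisomerase that separates sister chromatids (log2 -3.26 ± 0.17 SE, adjusted p = 4.61e-05). Their summed share of counts was 0.0390% and 0.0350% in CD11c+ and 0.206% and 0.178% in CD11c- libraries. Of 9 cell cycle inhibitors tested, 4 were lower and 0 higher (3 and 0 with library totals), and 5 did not pass. The lower ones include Cdkn2d (log2 -3.20 ± 0.16 SE, adjusted p = 3.99e-05) and Cdkn1b, which encodes p27 (log2 -1.50 ± 0.20 SE, adjusted p = 0.00182). At P5 these 4 lists had 0 genes called in either direction, with medians of -0.16 (other replication genes), -0.40 (E2F factors, cyclins and kinases), -0.01 (G2 and M phase) and -0.18 (inhibitors). Without P5 CD11c+ replicate 2, 3 genes of the lists passed. Gins1 (log2 -0.79, adjusted p = 0.0379) of the other replication genes and Cdk6 (log2 -0.89, adjusted p = 0.0154) were lower, and Ccnd1 (log2 0.94, adjusted p = 0.0276) was higher.

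Whether the subset difference itself changed with age was tested as the 9-month log2 fold change minus the P5 log2 fold change, the interaction term of 1 edgeR fit of the 10 libraries. An effect of the library kit on both subsets alike cancels from this value, and one that acts on 1 subset enters it. A change with age in the other cell types of 1 subset also enters it. Late neutrophil genes took 0.0716% to 0.343% of the CD11c- counts at P5 and 14.7% to 19.9% at 9 months. In CD11c+ libraries they took 0.02755% to 0.0329% at P5 and 0.156% to 0.248% at 9 months. Their part in this value was not tested. Of 19555 genes, 1.56% were lower and 0.302% higher. Among the members 8 were lower and 0 higher, and the median was -1.19, against -0.06 over all genes. The 8 come from several roles. Cdc6 (-3.15, adjusted p = 0.0192), Cdc45 (-2.61, adjusted p = 0.0348) and Gmnn (-2.14, adjusted p = 0.048) belong to licensing and the helicase. Rrm2 (-3.43, adjusted p = 0.0297) belongs to nucleotide supply and Uhrf1 (-2.85, adjusted p = 0.0214) to chromatin. Usp1 (-3.01, adjusted p = 0.0176) belongs to fork repair, and Dtl (-3.10, adjusted p = 0.0234) and E2f8 (-2.95, adjusted p = 0.0355) to S phase control. No polymerase or clamp gene passed with all 10 libraries and TMM scaling, and Pcna was at 0.20 ± 0.59 (SE, adjusted p = 0.905). Prim1 passed without P5 CD11c+ replicate 2 (-1.51, adjusted p = 0.0319). Scaled to the homeostatic list 6 of the 7, Pcna included, were lower, as were 30.7% of all genes. Without P5 CD11c+ replicate 2, 24 members were lower (10.3% of all genes) and 1, Polr1b, was higher (8.76%), with a median of -1.43, against 0.23 over all genes. The 8 genes named above were among the 24, from -3.76 for Rrm2 to -2.30 for Gmnn. With that library left out and the homeostatic scaling together, 40 members were lower (50.3% of all genes) and 0 higher (0.883%). With any single 9-month library left out, or without P5 CD11c- replicate 2 or 3, 0 members passed, and without P5 CD11c+ replicate 1, CD11c+ replicate 3 or CD11c- replicate 1 the counts were 3, 4 and 4.

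Levels at the 2 ages are set side by side without a test. In CD11c+ cells both 9-month libraries were below all 3 P5 libraries for 23 of 41 members and above them for 3 (Pold3, Rfc2 and Slbp), where 31.7% and 20.8% of 17202 genes at a mean of 1 CPM or more did so. Without P5 CD11c+ replicate 2 these counts were 32 and 4, and the shares of all genes were 42.6% and 31.4%. With all 3 P5 CD11c+ libraries, the median log2 ratio of group means, 9 months over P5, was -1.22. In CD11c- cells 12 members were below (48.0% of genes) and 9 above (20.4%), and the median log2 ratio was -0.02. The 9 were Cdc45, Cdc6, Cdca7, Gmnn, Rrm1, Rrm2, Slbp, Tipin and Tyms. Rrm2, with the largest subset difference of the 41 genes at 9 months, is given as an example. Its group means were 23.2 ± 10.1 CPM (SD, n = 3) in P5 CD11c+ and 36.4 ± 12.95 (SD, n = 3) in P5 CD11c- cells. At 9 months they were 8.39 ± 0.507 (SD, n = 2) in CD11c+ and 135 ± 17.8 (SD, n = 2) in CD11c- cells. For Uhrf1 the means were 46.4 ± 6.45, 47.6 ± 19.0, 4.15 ± 0.676 and 30.7 ± 9.11 CPM in the same order.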

How the data were processed

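The authors deposited raw counts per gene for each library, together with gene coordinates and lengths. Trimmomatic 0.36, STAR 2.5.2b and Subread 1.5.2 were used, per the submitters' processing notes. Not given in the sources used here are the genome build, strand use and the treatment of reads with several matches. Reads that a gene shares with a pseudogene copy or an overlapping gene on either strand may therefore be split or lost. Symbols came from GENCODE M21 (GRCm38) for 48970 identifiers, and 40 of the 41 members had the same start and end there.

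CPM and TPM (from the deposited lengths) were computed from the counts. Subsets were compared separately at P5 and at 9 months by edgeR 4.0.16 (R 4.3.3; filterByExpr, TMM scaling, quasi-likelihood F-test), and an interaction term over the 10 libraries compared the ages. P-values were adjusted by Benjamini-Hochberg over all genes tested, with a threshold of 0.05, and each adjusted p for a gene is from this test. The SE is the log2 fold change divided by the root of its F statistic. DESeq2 1.42.0, limma-voom (limma 3.58.1), other scalings, no filter, a replicate block, a fit of all libraries and leaving out each library were the alternatives. The fits were also run on simulated counts with the same spread for all genes. Those counts held no library of outlying composition and no difference in cell content, so they cannot test how the fits deal with either.

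The members, roles and gene lists were chosen with earlier results of these data known. Values in every library are given for 25 members: in each role the 2 with the highest mean TPM and the 2 with the largest change at 9 months, groups of up to 4 whole, and members of opposite sign. Other genes named with values outside this rule (from each other list, up to 4 with the smallest p at 9 months are within it), the promoters shown and the 8 genes in the plot of levels were chosen after their values were seen.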

Additional observations from a re-analysis of the deposited data

Results flagged for a closer look

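For 8 of the 41 members the CD11c difference at 9 months differed from that at P5 by the interaction test of edgeR over the 10 libraries, where 1.56% of all genes were lower. The difference is the 9-month log2 fold change minus the P5 log2 fold change. It was -3.43 for Rrm2, -3.15 for Cdc6, -3.10 for Dtl, -3.01 for Usp1, -2.95 for E2f8, -2.85 for Uhrf1, -2.61 for Cdc45 and -2.14 for Gmnn, with adjusted p between 0.0176 (Usp1) and 0.048 (Gmnn). All 8 had a lower level in both 9-month CD11c+ libraries than in either CD11c- library of that age, as did 23.7% of all genes tested there. The same 9-month values enter the interaction test that picked the 8, so this describes them and is not separate support. The count of 8 became 0 with any 1 of the 9-month libraries left out and 24 without P5 CD11c+ replicate 2. The other 33 members did not pass this test. Marker genes of neutrophils also differed in level between the ages in the CD11c- libraries, and their part in these values was not tested.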

How the results depend on the processing

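At P5, where 46 genes passed, the count was 555 with DESeq2, 75 with limma-voom, 75 with library totals, 111 with scaling to the homeostatic list, 138 in the fit of all 10 libraries and 2377 with CD11c+ replicate 2 left out together with homeostatic scaling. The members' median log2 fold change was 0.34 and 0.11 with homeostatic scaling of all 6 libraries and without replicate 2, and 0 members passed under these settings. Leaving out 1 P5 library gave 0 to 1501 genes, 0 to 1 members lower, 0 members higher and medians of -0.40 to -0.19.

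At 9 months, where 5202 genes passed, the count was 8646 with homeostatic scaling and 1158 in the fit of all 10 libraries, which left 15 members lower and 0 higher. Members called higher were 2 with library totals and 0 with homeostatic scaling, and the medians were -1.24 and -2.81. Mcm3 (-1.11), Pold3 (-0.89), Ubr7 (-1.10) and Polr1b (-0.29) changed sign with homeostatic scaling, which moves the median of all genes. Leaving out 1 library gave 4006 to 6087 genes, 26 to 32 members lower, 0 to 1 higher and medians of -1.59 to -1.52.

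For the difference between ages, where 364 genes and 8 members passed, DESeq2 gave 2407 genes and 20 members lower, RLE size factors 623 genes, no filter 693 genes, homeostatic scaling 6018 genes and 37 members lower (median -3.15), and leaving out P5 CD11c+ replicate 2 with homeostatic scaling 9391 genes and 40 members lower (median -3.09). The 7 members with a positive value turned negative in both. With all libraries Pcna (-1.58), Rfc2 (-1.82), Pold3 (-1.39) and Ubr7 (-1.45) then passed and Mcm3 (-1.02), Ung (-2.01) and Polr1b (-0.44) did not. Without replicate 2, Mcm3 (-1.35), Pcna (-1.74), Ung (-1.41), Rfc2 (-1.79), Pold3 (-1.22) and Ubr7 (-1.65) passed and Polr1b (-0.56) did not. Leaving out 1 library gave 0 to 3496 genes, 0 to 24 members lower, 0 to 1 higher and medians of -1.43 to -0.93. The cause of these shifts was not tested.

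Same-numbered libraries had mixed correlations of their deviations from the group mean (0.464, 0.108 and -0.407 at P5, and 0.078 at 9 months). Libraries with different numbers had -0.474 to 0.463 at P5. With 2 libraries a group, the 9-month values can differ only in sign. These values cannot decide whether equal numbers mark pairs. With a replicate block 0 genes passed at P5, 5436 at 9 months and 0, members included, for the difference between ages. With 2 or 3 libraries a group, 1 library decides many single calls, and a library left alone in its group is assumed to vary like the others. The lowest member count in a 9-month library was 21, and in P5 CD11c+ replicate 2 it was 1, so low values there carry large counting error.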

Other observations

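Markers of blood cell progenitors did not move together at 9 months. Of 7 such genes tested, 3 were lower in CD11c+ cells, among them Myb, a transcription factor of dividing blood progenitors (log2 -5.93 ± 0.35 SE, adjusted p = 5.92e-05), and Kit, the stem cell factor receptor (log2 -1.96 ± 0.51 SE, adjusted p = 0.0257), and 2 were higher, among them the surface marker Cd34 (log2 1.71 ± 0.14 SE, adjusted p = 0.00027). Cd34 was at 386.8 and 375.6 CPM in CD11c+ and 98.3 and 81.4 CPM in CD11c- libraries. The other 7 genes of the list summed to 38.6 and 32.6 CPM in CD11c+ and 49.2 and 52.8 CPM in CD11c- libraries. Of 7 lymphocyte genes tested, 4 were lower and 0 higher, where 18.2% of all genes were lower and 14.8% higher. The list took 0.0122% to 0.0124% of the CD11c- counts and 0.00389% to 0.00435% of the CD11c+ counts. In CD11c- libraries 1 gene, Nkg7, was at 79.4 and 92.3 CPM, of 123.8 and 121.8 CPM for the whole list. Nkg7 was at 5.81 and 2.91 CPM in CD11c+ libraries. Rag1, Rag2 and Pax5 were at 0 in CD11c- libraries.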
